A study of Mus musculus with 8 samples.

Results

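The comparison described here is between 2 groups of NIH3T3 cells that both received Hedgehog-conditioned medium (Hh-CM) and differ in the vector they carry. It takes 4 of the 8 RNA-Seq samples of the study, the 2 Hh-CM samples and the 2 Esrrb+Hh-CM samples. NIH3T3 cells are mouse fibroblasts of embryonic origin that carry a working Hedgehog pathway. Hh-CM samples came from NIH3T3-pc3.1 cells, stably transfected with the empty pcDNA3.1 (Zeo+) vector, and Esrrb+Hh-CM samples from NIH3T3-Esrrb cells, stably transfected with the same vector carrying Esrrb. Both groups had been selected in 150 ug/ml Zeocin and were grown to confluence, then kept for 48 h in phenol red-free medium with 5% newborn calf serum and Hh-CM diluted 100-fold. The cells of 2 independent transfections were pooled to make each line, and the labels do not tie either sample of a group to a transfection, so p-values measure the spread between these samples only. The other 4 samples, Control and Esrrb cells given vehicle, enter the fit for its estimate of spread and for a test of whether the vector effect depends on the medium. Of 20196 annotated genes with a value in all 8 samples, 10139 had 2 or more of the 4 samples at 1 FPKM or above and were compared. FPKM is the number of fragments of a gene, scaled to transcript length and to the mapped fragments of the sample.

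Hedgehog ligands bind Ptch1, which releases Smo and lets Gli transcription factors act, and Gli1 and Ptch1 are themselves induced by the pathway. Esrrb is an orphan nuclear receptor known for its place in the pluripotency network of embryonic stem cells. Its family binds DNA at an extended half-site, TCAAGGTCA, and works with the coactivators Ppargc1a and Ppargc1b on genes of mitochondrial energy metabolism in muscle, heart and brown fat. Fibroblasts such as NIH3T3 make collagens, proteoglycans and other matrix proteins, and stop dividing at confluence.

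The Esrrb locus, on chromosome 12 of mm9 from 87702067 to 87862578, was listed at 0 in both libraries labelled Esrrb+Hh-CM and at 0.0281 and 0.0203 FPKM in the Hh-CM libraries. The transgene was therefore not seen in this measure, and the group names below follow the labels. By Western blot, the study reported more Esrrb protein in NIH3T3-Esrrb than in NIH3T3-pc3.1 cells. Gli1, at 0.0217 and 0.0308 FPKM in Control, was at 26.8 and 28.1 FPKM in Hh-CM and 34.5 and 34.8 FPKM in Esrrb+Hh-CM, above Control in both groups. Fibroblast markers summed to between 5947 and 6403 FPKM in Hh-CM and between 6235 and 6330 FPKM in Esrrb+Hh-CM. Of the markers of other cell types, all 6 epithelial, all 4 muscle and all 4 adipocyte markers were below 1 FPKM in the 4 samples, and neural markers summed to 2.70 and 3.02 FPKM in Hh-CM and to 1.63 and 1.01 FPKM in Esrrb+Hh-CM, with 3 of 4 below 1 FPKM. Haematopoietic markers, 3 of 5 below 1 FPKM, summed to 5.86 and 5.86 FPKM in Hh-CM and to 6.89 and 5.56 FPKM in Esrrb+Hh-CM. Endothelial markers, 3 of 4 below 1 FPKM, summed to between 1.19 and 1.42 FPKM and between 1.23 and 1.67 FPKM. The part of these markers in the results was not tested. Read totals per sample are not in the files. Set against Hh-CM replicate 1, the steps of low FPKM values put depth at 1.385 for Hh-CM replicate 2, and for Esrrb+Hh-CM at 0.8526 and 0.669. The vehicle-treated sample Esrrb replicate 1 stood apart, since it shared 8080 assembly-numbered loci with Hh-CM replicate 2, against 1 to 106 for other pairs. Some counts are also given without it. Fold changes and calls under vehicle, and the genes named for a different vector effect, are given only with it.

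Tested on log2(FPKM + 0.1) with limma, 201 genes (1.98% of those tested) had both an adjusted p under 0.05 and a change of 1 or more, up or down, on the log2 scale. Of these, 113 (1.11%) were higher and 88 (0.868%) were lower in Esrrb+Hh-CM than in Hh-CM. Such genes are called here, and fold changes understate the change of genes with low FPKM. The adjusted p alone was passed by 1299 higher genes (12.8%) and 678 lower genes (6.69%), together 19.5% of those tested, and the median log2 fold change of all genes was 0.05. Set apart, 13 called genes were listed at 0 in at least 1 of the 4 samples, which leaves 188 called genes above 0 throughout, 106 higher and 82 lower. The 2 groups did not overlap in any of the 188, as in 6432 of all tested genes (63.4%). In bulk RNA, a change in the number of cells that express a gene and a change in RNA per cell cannot be told apart. With the FPKM rescaled by the median ratio between samples, 90 genes were higher and 97 lower, and after quantile normalization 98 and 114, so the balance of the directions depended on the scaling.

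**Figure D1:**
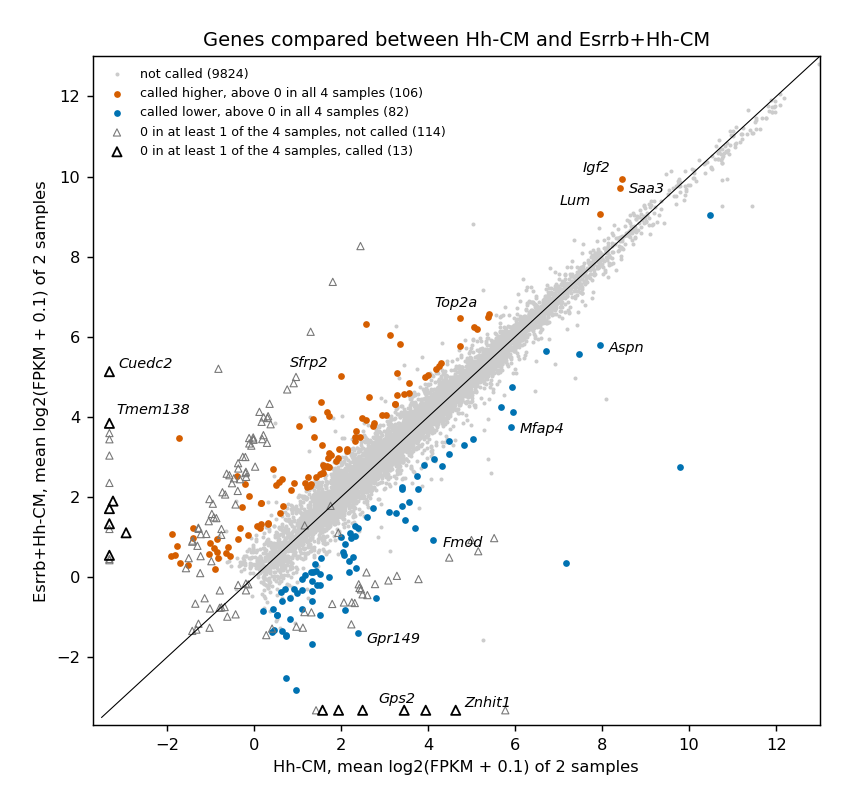
Mean log2(FPKM + 0.1) of the 2 Hh-CM samples (x axis) against that of the 2 Esrrb+Hh-CM samples (y axis), with 1 point per tested gene and the line of equality. The 106 orange and 82 blue points are the genes called higher and lower that were above 0 in all 4 samples, and triangles are genes listed at 0 in at least 1 of the 4 samples, such as Cuedc2, Znhit1 and Gps2.

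Large increases were seen for a secreted Wnt antagonist, enzymes that act on the matrix and a deiodinase, and 14 genes are described here. Sfrp2, which binds Wnt ligands outside the cell (chromosome 3, 83570243 to 83578238), was at 3.47 and 4.33 FPKM in Hh-CM and at 33.5 and 31.8 FPKM in Esrrb+Hh-CM. The mean rose 8.38-fold, and the log2 fold change was 3.04 (standard error 0.10, adjusted p = 7.37e-05). Adamts15, a protease that cuts proteoglycans, rose from 0.570 and 0.775 to 5.26 and 6.12 FPKM, and Hpse, the heparanase that cuts heparan sulfate, from 0.137 and 0.197 to 1.40 and 1.29 FPKM.

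Dio2, the deiodinase that turns thyroxine into its active form, was at 0.832 and 0.831 FPKM in Hh-CM and at 4.03 and 3.90 FPKM in Esrrb+Hh-CM (log2 fold change 2.12, adjusted p = 6.06e-04). Its replicates were nearly equal in both groups. Dapk1, a death-associated protein kinase, reached the highest Esrrb+Hh-CM level of the 14 after Sfrp2, with 3.21 and 3.20 FPKM against 15.3 and 17.1 FPKM. Ms4a4d, a membrane-spanning protein, was at 2.72 and 2.28 against 12.4 and 9.93 FPKM. Unc5a, a receptor for netrin, Stc1, a secreted stanniocalcin, and Gda, the guanine deaminase, were below 0.3 FPKM in both Hh-CM samples and between 1.26 and 2.12 FPKM in both Esrrb+Hh-CM samples. The remaining genes of the 14 were Gstt4, Slxl1, Gm7609, Esx1 and 3110007F17Rik, with log2 fold changes from 1.87 to 2.62. With a pseudocount of 1 the log2 fold changes of Stc1, Esx1 and 3110007F17Rik were 0.996, 0.85 and 0.96, under the threshold. Slxl1, Gm7609 and 3110007F17Rik have near-identical copies elsewhere in the genome, and reads could have been split between them. Gstt4 rested on few reads, and its log2 fold change of 2.62 (standard error 0.42, adjusted p = 0.0114) had adjusted p = 0.434 with a pseudocount of 0.001, 0.0558 without Hh-CM replicate 1 and 0.0513 without Hh-CM replicate 2.

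**Figure D2:**
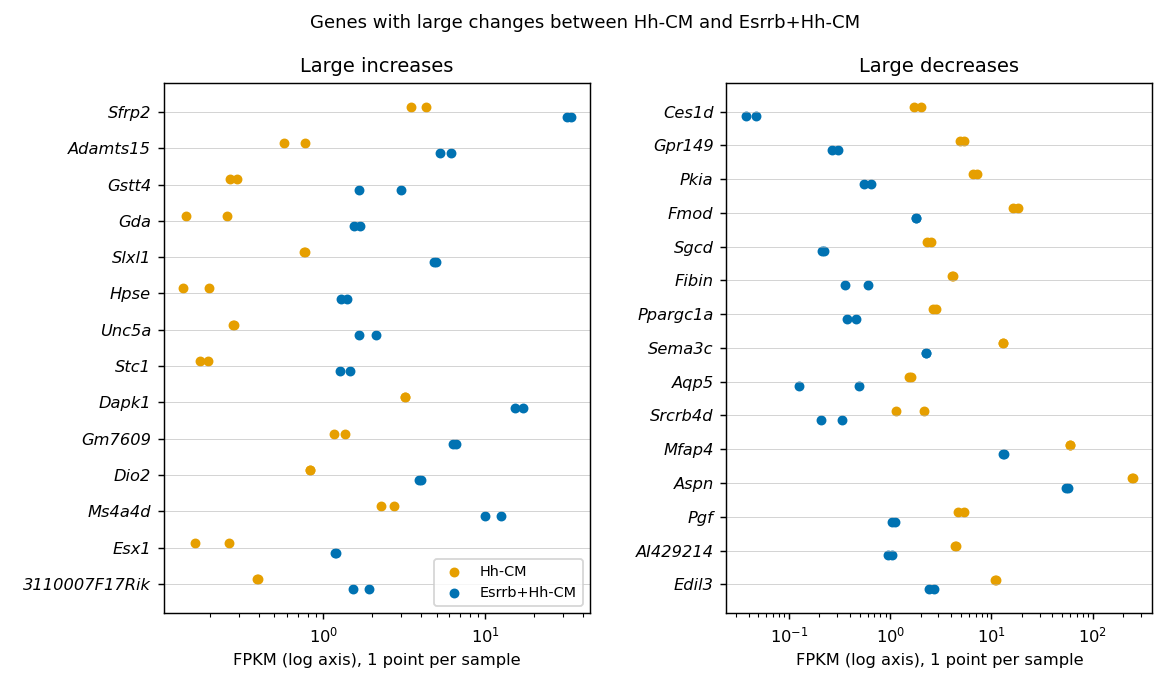
FPKM on a log axis of 14 genes with large increases (left) and 15 with large decreases (right), 1 point per sample, 2 Hh-CM samples in orange and 2 Esrrb+Hh-CM samples in blue. Every gene shown has its 2 groups apart, from Sfrp2 at 3.47 and 4.33 against 33.5 and 31.8 FPKM to Edil3 at 11.1 and 10.8 against 2.74 and 2.43 FPKM.

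The largest decreases included secreted matrix proteins, guidance and growth factors and the coactivator Ppargc1a. Ces1d, a carboxylesterase that hydrolyses stored lipid, was at 1.72 and 2.02 FPKM in Hh-CM and at 0.0374 and 0.0477 FPKM in Esrrb+Hh-CM. Its log2 fold change was -3.79 (standard error 0.28, adjusted p = 0.00119), and with a pseudocount of 0.001 its adjusted p was 0.0687. Gpr149, an orphan receptor, fell from 5.36 and 4.88 to 0.264 and 0.304 FPKM, and Pkia, an inhibitor of protein kinase A, from 7.24 and 6.60 to 0.644 and 0.556 FPKM. Both were thus more than 10-fold lower in Esrrb+Hh-CM. Ppargc1a, the coactivator through which estrogen-related receptors act on mitochondrial genes (chromosome 5, 51845488 to 51958964), was at 2.67 and 2.84 FPKM in Hh-CM and at 0.377 and 0.457 FPKM in Esrrb+Hh-CM. Its mean was 6.61-fold lower, and its log2 fold change was -2.47 (standard error 0.16, adjusted p = 8.18e-04).

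Sema3c, a secreted guidance cue, was at 12.9 and 12.9 FPKM against 2.26 and 2.25 FPKM, and the replicates were nearly equal in both groups. Mfap4, a protein of elastic fibres, was at 60.4 and 59.3 against 13.4 and 13.2 FPKM. Edil3, a matrix ligand of integrins, was at 11.1 and 10.8 against 2.74 and 2.43 FPKM. Pgf, the placental growth factor, was at 5.36 and 4.65 against 1.05 and 1.11 FPKM, while it was at 0.411 FPKM or below in all 4 vehicle-treated samples. Sgcd, a sarcoglycan of the dystrophin complex, and Fibin, a secreted protein first described in fin buds, had log2 fold changes of -3.004 and -2.90. Fmod and Aspn are described with the proteoglycans below, and AI429214 had a log2 fold change of -2.04. Aqp5, a water channel, and Srcrb4d, a scavenger receptor-like protein, also met the rule but were low and spread. Their adjusted p of 0.024 and 0.0297 became 0.0889 and 0.0574 with only the 4 Hh-CM-treated samples in the fit. Without 1 sample it reached 0.103 for Aqp5, without Hh-CM replicate 1, and 0.138 for Srcrb4d, also without that sample.

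Genes of mitosis were higher in Esrrb+Hh-CM as a group. All 39 tested members of a 40-gene list of mitosis and cytokinesis were higher with an adjusted p below 0.05, against 12.8% of all tested genes, and 11 were called. Their log2 fold changes ran from 0.40 to 1.17, with a median of 0.90 beside 0.05 for all tested genes. The median FPKM of the 39 genes was 11.4 and 11.9 in Hh-CM and 20.5 and 19.8 in Esrrb+Hh-CM. In vehicle it was 5.83 and 5.95 in Control and 7.07 and 7.40 in Esrrb. Top2a, the topoisomerase that untangles replicated chromosomes (chromosome 11, 98854257 to 98885503), was at 43.2 and 41.2 FPKM in Hh-CM and at 97.1 and 92.8 FPKM in Esrrb+Hh-CM. It rose 2.25-fold, and its log2 fold change was 1.17 (standard error 0.04, adjusted p = 9.81e-05).

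Plk1, a kinase of mitotic entry, was at 7.17 and 7.93 FPKM in Hh-CM and at 16.4 and 16.7 FPKM in Esrrb+Hh-CM. Kif2c, a motor that takes apart microtubules at kinetochores, was at 9.22 and 9.50 against 20.3 and 19.8 FPKM, and Bub1b, a kinase of the spindle checkpoint, at 9.002 and 9.64 against 20.5 and 19.4 FPKM. These roughly doubled levels stood close to the threshold of fold change. The other called members, named after their values were seen, were Mki67, Ccnb1, Aurka, Aurkb, Cenpa, Ube2c and Birc5. Cenpa, the histone variant of centromeres, differed between the Esrrb+Hh-CM samples, at 49.7 and 30.2 FPKM, against 19.1 and 18.6 FPKM in Hh-CM. Its call was lost with only the 4 Hh-CM-treated samples in the fit (adjusted p = 0.0898), without Hh-CM replicate 1 or 2 (0.115 and 0.104), without either Esrrb replicate (0.05345), and without Esrrb+Hh-CM replicate 1, where its log2 fold change was 0.68. The number of called members was 6 with FPKM rescaled by the median ratio, 7 after quantile normalization, 7 with a pseudocount of 1, 6 with only genes at identical loci and 7 without Hh-CM replicate 2. The number past the adjusted p stayed between 34 and 39 in all but the fit on genes at identical loci, which kept 30.

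Promoter sequences of Sfrp2 and of mitotic genes are shown because these genes mark the opposite kinds of change seen here, a single strong increase and a joint moderate one. Each is the stretch of 250 bases before the RefSeq start of transcription, 5′ to 3′ on the strand of the gene, matched base for base and at 1 place in mm9. Capitals mark CCAAT and TTTGAA, the boxes known from promoters of G2 and M phase genes, on either strand, and no such box was found in the stretch of Sfrp2.
Sfrp2, chr3:83569993-83570242, plus strand: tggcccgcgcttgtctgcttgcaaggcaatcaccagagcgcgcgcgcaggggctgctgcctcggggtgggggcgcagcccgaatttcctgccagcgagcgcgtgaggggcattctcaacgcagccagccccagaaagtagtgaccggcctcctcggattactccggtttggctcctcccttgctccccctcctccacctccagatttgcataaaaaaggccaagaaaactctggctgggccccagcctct
Top2a, chr11:98885504-98885753, minus strand: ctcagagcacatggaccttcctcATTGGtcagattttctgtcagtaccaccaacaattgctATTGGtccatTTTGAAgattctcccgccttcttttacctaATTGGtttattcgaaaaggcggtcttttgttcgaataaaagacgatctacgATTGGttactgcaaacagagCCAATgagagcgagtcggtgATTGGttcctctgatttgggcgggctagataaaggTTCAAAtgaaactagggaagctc
Ube2c, chr2:164595179-164595428, plus strand: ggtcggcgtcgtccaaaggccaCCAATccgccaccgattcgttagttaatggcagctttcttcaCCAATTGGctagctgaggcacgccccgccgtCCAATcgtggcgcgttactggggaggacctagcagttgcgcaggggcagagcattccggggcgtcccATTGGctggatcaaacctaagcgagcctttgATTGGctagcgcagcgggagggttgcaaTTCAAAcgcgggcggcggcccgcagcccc
Mki67, chr7:142908063-142908312, minus strand: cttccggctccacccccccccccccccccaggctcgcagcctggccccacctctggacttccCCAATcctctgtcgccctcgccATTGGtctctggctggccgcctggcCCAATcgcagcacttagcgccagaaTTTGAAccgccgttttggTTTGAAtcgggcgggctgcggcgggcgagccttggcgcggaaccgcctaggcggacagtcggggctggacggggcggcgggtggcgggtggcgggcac

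The stretches of Top2a and Ube2c held CCAAT 6 times each and that of Mki67 3 times, and 2 of the matches in Ube2c overlap. That of Ccnb1, also a called mitosis gene but not printed, held CCAAT 2 times and TTTGAA 0 times. Those of Fmod, Dio2 and Hoxd9, not printed either, held neither box. In windows of 300 bases, which include 50 bases after the start, TTTGAA was present in 25 of 33 mitosis genes with an entry and in 4 of 30 genes of DNA replication, against 13.99% of the 7362 tested genes with an entry. CCAAT was present in 27 and 19 of them, against 43.7% of tested genes. These 2 boxes were chosen after the expression values were seen. The half-site of estrogen-related receptors, TCAAGGTCA, was in 0 of 80 called higher and 0 of 57 called lower genes with a window, against 0.285% of tested genes. Its core AAGGTCA, which every TCAAGGTCA also holds, was in 0 of the 80 and in 3 of the 57, Col11a1, Kif6 and Tnxb, against 3.41% of tested genes. The Gli motif GACCACCCA was in 1 of the 80, Espl1, and in 0 of the 57, against 0.299% of tested genes. TCAAGGTCA and GACCACCCA are too rare for counts of 0 or 1 in so few windows to show a lack or an excess. The windows of Sfrp2 and Top2a held none of these 3 motifs, which says nothing of binding elsewhere. Adamts15, Ces1d, Gpr149 and Pkia are named only.

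Genes of DNA replication moved the same way by less. Of 38 tested members, 33 were higher with an adjusted p below 0.05, against 12.8% of all tested genes, and 0 lower. Of the 33, 3 were called, and the median log2 fold change of the 38 was 0.67. Gins1, a subunit of the replicative helicase, was at 2.67 and 3.16 FPKM in Hh-CM and at 6.93 and 6.75 FPKM in Esrrb+Hh-CM. Mcm10, a factor of replication initiation, was at 3.08 and 3.28 against 6.57 and 6.75 FPKM, and Tk1, thymidine kinase, at 18.1 and 21.4 against 49.6 and 32.8 FPKM. Mcm10 lost its call with any 1 of the 4 Hh-CM-treated samples left out (adjusted p from 0.0591 to 0.0821), and its log2 fold change was under 1 with a pseudocount of 1 (0.875) and with both rescalings (0.997 and 0.992). Tk1 was spread widely within Esrrb+Hh-CM, and its adjusted p of 0.021 became 0.0761 with only the 4 Hh-CM-treated samples in the fit. The number past the adjusted p was 18 without Hh-CM replicate 1, 20 without Hh-CM replicate 2, 23 and 25 without Esrrb+Hh-CM replicates 1 and 2, and 33 without the library Esrrb replicate 1.

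Tubulins and stathmin are the subunits of microtubules and a protein that takes them apart. They had 7 of 8 tested members past the adjusted p, all higher, against 12.8% of all tested genes, and 0 called. Tubb6 was at 50.3 and 51.5 FPKM in Hh-CM and at 97.1 and 87.1 FPKM in Esrrb+Hh-CM, and Stmn1 at 69.1 and 62.7 against 107 and 102 FPKM. Among 17 tested genes of G1 control, 6 were higher and 1 lower by the adjusted p, against 12.8% and 6.69% of all tested genes. The lower one was Ccnd1, the D-type cyclin that responds to mitogens, at 29.6 and 28.2 FPKM in Hh-CM and at 20.9 and 20.2 FPKM in Esrrb+Hh-CM. Mycn, a Myc family transcription factor, was the only one called, at 0.376 and 0.407 against 1.49 and 1.30 FPKM (log2 fold change 1.60, adjusted p = 0.00947). Its log2 fold change was 0.78 with a pseudocount of 1, and its adjusted p 0.052 without Hh-CM replicate 1. Cdkn1a, the p53-induced inhibitor of cyclin-dependent kinases, was also higher, at 42.0 and 46.1 against 57.6 and 59.7 FPKM.

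**Figure D3:**
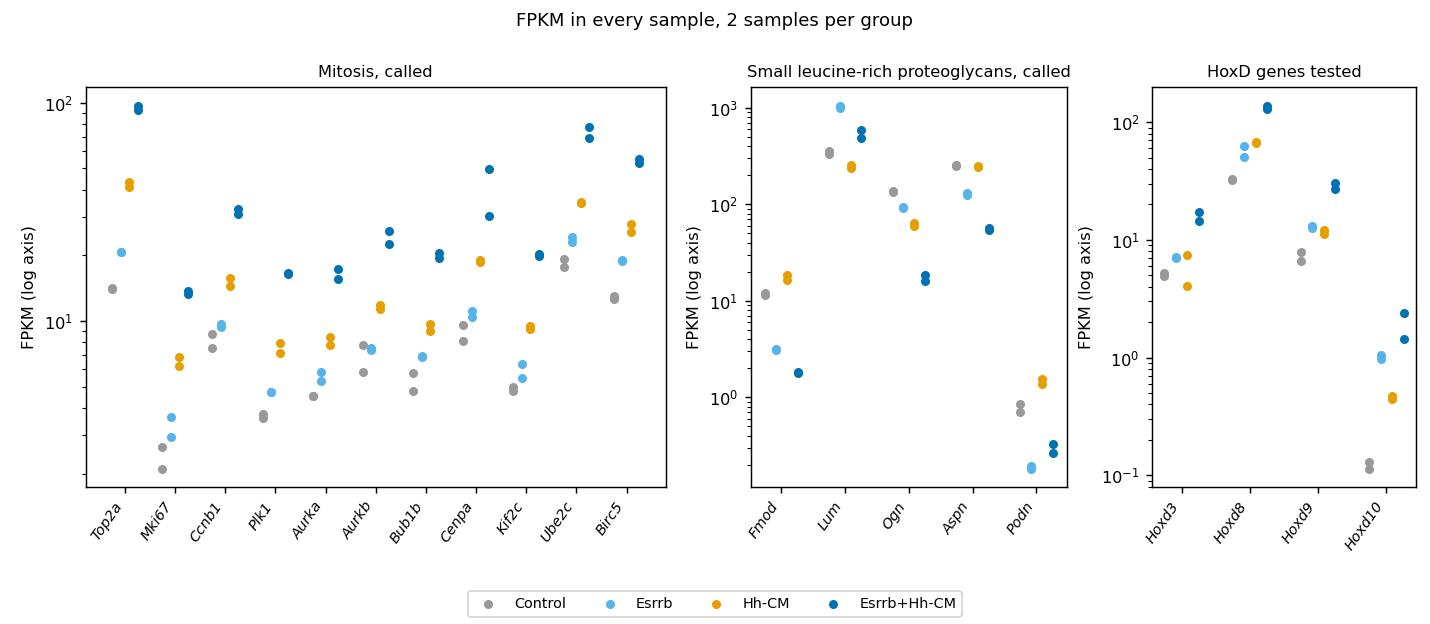
FPKM on a log axis in all 8 samples, 2 points per group, for the 11 called mitosis genes (left), the 5 called small leucine-rich proteoglycans (middle) and the 4 tested HoxD genes (right). In the left panel the Esrrb+Hh-CM samples lie above all others, as for Top2a at 97.1 and 92.8 FPKM, and in the middle panel Fmod, Ogn and Aspn have their lowest values in Esrrb+Hh-CM.

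Small leucine-rich proteoglycans, which coat collagen fibrils and set their thickness, were mostly lower. Of 9 tested members, 6 were lower and 2 higher by the adjusted p, against 6.69% and 12.8% of all tested genes. Among the 9, 4 were called lower and 1 called higher, and the median log2 fold change was -0.75. Fmod, fibromodulin (chromosome 1, 135933831 to 135944854), was at 16.3 and 18.3 FPKM in Hh-CM and at 1.79 and 1.805 FPKM in Esrrb+Hh-CM. Its mean was 9.63-fold lower, and its log2 fold change was -3.19 (standard error 0.08, adjusted p = 2.18e-05). Aspn, asporin (chromosome 13, 49639812 to 49662926), an abundant transcript, was at 251 and 245 against 54.8 and 57.1 FPKM, 4.43-fold lower. Its neighbour Ogn, osteoglycin (chromosome 13, 49703440 to 49719869), was at 63.9 and 59.8 against 18.5 and 16.2 FPKM.

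Podn, podocan, was at 1.37 and 1.55 FPKM in Hh-CM and at 0.325 and 0.263 FPKM in Esrrb+Hh-CM, with a log2 fold change of -0.92 at a pseudocount of 1. The called member that was higher, Lum, lumican, named after its values were seen, was at 239 and 255 FPKM in Hh-CM and at 587 and 488 FPKM in Esrrb+Hh-CM (log2 fold change 1.12, adjusted p = 0.0019). Without Esrrb+Hh-CM replicate 1 it was 0.98. Among 17 tested collagens, 6 were higher and 2 lower by the adjusted p, against 12.8% and 6.69% of all tested genes. Col12a1, a collagen on the surface of fibrils, was at 2.56 and 2.39 against 15.7 and 14.9 FPKM, though its locus also covers 4930562D21Rik. Col11a1, which nucleates thin fibrils, was at 13.1 and 14.05 against 4.37 and 4.57 FPKM.

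Matricellular and elastic fibre proteins moved in both directions, with a median log2 fold change of -0.01. Of 25 tested members, 7 were higher and 9 lower by the adjusted p, against 12.8% and 6.69% of all tested genes. Dpt, dermatopontin, which binds decorin and collagen, was at 17.1 and 14.9 FPKM in Hh-CM and at 33.3 and 33.0 FPKM in Esrrb+Hh-CM. Smoc2, a calcium-binding matrix protein, was at 105 and 106 against 49.2 and 50.7 FPKM, and Nov, a CCN family member, at 1.98 and 2.14 against 0.671 and 0.739 FPKM. At a pseudocount of 1 the log2 fold change of Nov was -0.84. Dpt without Hh-CM replicate 2 had a log2 fold change of 0.95, short of the threshold. Of 20 contractile, SRF and YAP target genes, 6 were lower and 2 higher by the adjusted p, against 6.69% and 12.8% of all tested genes. Myl9, a myosin light chain, was the called one, at 21.9 and 22.8 against 10.0 and 10.8 FPKM, and Acta2, smooth muscle actin, was at 212 and 225 against 124 and 125 FPKM. Among integrins, cadherins and related adhesion genes, Alcam, an adhesion molecule of the immunoglobulin family, was called lower, at 1.79 and 1.60 against 0.305 and 0.478 FPKM. Without Hh-CM replicate 1 Alcam had adjusted p = 0.0539, and at a pseudocount of 1 its log2 fold change was -0.95.

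Within the Hedgehog pathway itself, 3 of 12 tested genes passed the adjusted p, 2 higher and 1 lower, a share near the 19.5% of all tested genes. By sign alone 11 of the 12 were higher, a count for which no share of all tested genes was taken. The median log2 fold change of the 12 was 0.24, beside 0.05 for all tested genes. Of the 12, 1 was called, and 0 after quantile normalization. Gli2, a transcription factor of the pathway, was higher, at 10.5 and 11.8 FPKM in Hh-CM and at 15.1 and 14.3 FPKM in Esrrb+Hh-CM. The lower gene was Gas1, a coreceptor for the ligand, at 128 and 128 against 96.1 and 87.0 FPKM. Gli1 and Ptch1 had log2 fold changes of 0.34 and 0.31 with adjusted p of 0.289 and 0.103. Ptch1 was at 37.0 and 37.0 FPKM in Hh-CM and at 43.9 and 47.7 FPKM in Esrrb+Hh-CM.

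Other secreted regulators of Wnt signalling changed less than Sfrp2. Sfrp1, its relative, rose from 51.6 and 49.6 to 89.2 and 90.1 FPKM, a log2 fold change of 0.82. Dkk3 and Rspo2 were lower by the adjusted p, with log2 fold changes of -0.25 and -0.52. Of 8 tested genes in a list of beta-catenin, its partners, regulators and targets, 0 were called. Ctnnb1, which encodes beta-catenin itself, and the target Ccnd1 were lower by the adjusted p, and the median of the 8 log2 fold changes was -0.0014.

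Of 39 Hox genes listed, 31 had a value in all 8 samples. Hoxa2, Hoxa3, Hoxa5, Hoxa6, Hoxb3, Hoxb9, Hoxc4 and Hoxd4 had no matched locus in every sample and were not assessed. Of the 31, 8 reached the FPKM limit, and the 3 called ones, all higher, were HoxD genes on chromosome 2. By the adjusted p 4 were higher and 1 lower, against 12.8% and 6.69% of all tested genes, and the log2 fold changes of the 8 ran from -1.20, for Hoxa7, which did not pass, to 1.81. Hoxd9, which patterns limb and trunk, was at 11.1 and 12.2 FPKM in Hh-CM and at 30.5 and 27.0 FPKM in Esrrb+Hh-CM (log2 fold change 1.29, adjusted p = 0.00164). Hoxd10 was at 0.444 and 0.468 against 2.39 and 1.43 FPKM, and Hoxd3, whose locus also covers Hoxd4, at 7.499 and 4.02 against 14.4 and 17.2 FPKM. In the fit on the 4 Hh-CM-treated samples alone, Hoxd9 was the only Hox gene still called, as Hoxd10 and Hoxd3 had adjusted p of 0.0505 and 0.0738. Hoxd8 lay just under the fold change threshold, at 66.3 and 68.4 against 139 and 130 FPKM (log2 fold change 0.99, adjusted p = 0.0034).

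Among other patterning factors, Wt1, the Wilms tumour transcription factor, was listed at 0 and at 0.0702 FPKM in Hh-CM and was at 2.15 and 1.97 FPKM in Esrrb+Hh-CM. It was also low in Control, at 0.0216 and 0.0368 FPKM, and at 3.22 and 7.31 FPKM in Esrrb.

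Growth factor genes were led by Igf2, an insulin-like growth factor expressed in embryonic tissue (chromosome 7, 149836673 to 149852721). It was at 345 and 362 FPKM in Hh-CM and at 1010 and 956 FPKM in Esrrb+Hh-CM, a 2.78-fold increase on FPKM and 1.47 on the log2 scale (standard error 0.04, adjusted p = 3.46e-05). H19, the RNA of the imprinted gene next to it, was at 240 and 231 against 350 and 328 FPKM. Pappa2, a protease that frees insulin-like growth factors from their binding proteins, was called lower, at 10.5 and 10.5 against 4.53 and 4.73 FPKM. Igfbp4, a binding protein, was higher, at 86.8 and 82.7 against 144 and 140 FPKM, with a log2 fold change of 0.74. In the PDGF and FGF list, 4 of 24 were higher and 4 lower by the adjusted p, against 12.8% and 6.69% of all tested genes, with Spry2, a feedback inhibitor of receptor kinases, at 9.01 and 8.65 against 16.2 and 14.5 FPKM.

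Of 19 tested genes of BMP and TGF-beta signalling, 8 were lower and 2 higher by the adjusted p, against 6.69% and 12.8% of all tested genes. Fst, follistatin, which binds activins and BMPs, was the called one, at 9.45 and 11.6 FPKM in Hh-CM and at 3.43 and 3.24 FPKM in Esrrb+Hh-CM (log2 fold change -1.62, adjusted p = 0.00135). Ltbp2 and Ltbp1, latent TGF-beta binding proteins of the matrix, were at 62.8 and 61.4 against 33.5 and 34.6 FPKM and at 10.5 and 11.3 against 5.05 and 5.89 FPKM. Fstl3, a relative of follistatin, was higher, at 1.57 and 1.91 against 3.16 and 3.51 FPKM. The number past the adjusted p was 5 without Hh-CM replicate 1, 6 without Hh-CM replicate 2, 6 without Esrrb+Hh-CM replicate 2 and 6 with no FPKM limit. In the Notch list, Hes1, a repressor induced by Notch, was called lower, at 8.60 and 8.35 against 3.27 and 2.69 FPKM, and Jag1, a ligand, was lower by the adjusted p, at 8.27 and 10.5 against 5.06 and 4.93 FPKM. The adjusted p of Hes1, 0.0114, was 0.0695 and 0.0568 without Hh-CM replicates 1 and 2 in turn.

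Retinoid genes and a clock-related factor held further calls. Rarres2, which encodes the chemoattractant chemerin, was at 26.5 and 26.3 FPKM in Hh-CM and at 91.6 and 84.9 FPKM in Esrrb+Hh-CM (log2 fold change 1.74, adjusted p = 1.94e-04). Crabp1, which binds retinoic acid in the cell, was at 42.8 and 39.7 against 105 and 78.0 FPKM. Its log2 fold change of 1.13 was 0.92 without Esrrb+Hh-CM replicate 1. Aldh1a7, an aldehyde dehydrogenase, was called lower but was low and lost its call with only the 4 samples in the fit (adjusted p = 0.0887). Hlf, a PAR bZIP factor, was at 4.95 and 4.83 against 11.2 and 11.1 FPKM, a difference far beyond that between replicates.

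Acute-phase and innate defence genes were higher in 5 of 11 tested members and lower in 1 by the adjusted p, against 12.8% and 6.69% of all tested genes. The 6 became 4 with FPKM rescaled by the median ratio. Saa3, a serum amyloid A made outside the liver, was at 340 and 344 FPKM in Hh-CM and at 863 and 832 FPKM in Esrrb+Hh-CM (log2 fold change 1.31, adjusted p = 6.13e-05). Steap4, a metalloreductase, was at 33.2 and 33.1 against 77.2 and 74.3 FPKM, and Hp, haptoglobin, at 54.5 and 54.6 against 113 and 99.6 FPKM. Retnla, a resistin-like protein, was at 35.1 and 41.6 against 144 and 144 FPKM, with groups far apart. Its log2 fold change of 1.91 had a standard error of 0.69 and adjusted p = 0.107. Control, which shares the spread in the fit, was at 0 and 0.403 FPKM, and Retnla had adjusted p = 0.00163 and 0.00168 without Control replicates 1 and 2 in turn and 0.00869 with only the 4 Hh-CM-treated samples. Il33, an alarmin cytokine, was called lower, at 61.1 and 60.1 against 27.6 and 26.2 FPKM, and the chemokine Cxcl1 was lower by the adjusted p, at 51.05 and 45.7 against 36.3 and 32.3 FPKM. Of 19 interferon and antigen presentation genes, 4 were higher by the adjusted p and 0 called, a share near that of all tested genes.

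Lists of energy metabolism genes that estrogen-related receptors control in other tissues held 0 called genes. Their shares past the adjusted p, 14.3% for the respiratory chain and 24.1% for the citrate cycle and fatty acid oxidation, stand beside 19.5% of all tested genes. Of 42 tested nuclear genes of the respiratory chain, 5 were higher and 1 lower by the adjusted p, 0 were called, and the median log2 fold change was -0.01. Of 29 genes of the citrate cycle and fatty acid oxidation, 4 were higher and 3 lower, 0 were called, and the median was -0.02. Pdk4, a kinase that shuts off pyruvate dehydrogenase, was the largest of these changes, at 33.9 and 33.5 FPKM in Hh-CM and at 19.3 and 20.1 FPKM in Esrrb+Hh-CM. Among 13 tested receptors and coregulators of the family, Ppargc1a was the only one called. Of 4 tested pluripotency genes, Klf2 and Klf5 passed the adjusted p, both higher with log2 fold changes of 0.57 and 0.53. The log2 fold change of Klf2 did not pass with FPKM rescaled by the median ratio (adjusted p = 0.05885), after quantile normalization (0.0647), or with any 1 of the 4 Hh-CM-treated samples left out (0.123 to 0.161).

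Lipid genes shifted by small amounts. Cholesterol synthesis and uptake had 7 of 21 and fatty acid synthesis 7 of 16 tested members higher by the adjusted p, 0 lower and 0 called, against 12.8% of all tested genes higher, with medians of 0.22 and 0.23. The fatty acid count was 4 with FPKM rescaled by the median ratio. Fasn, fatty acid synthase, was at 10.2 and 11.04 FPKM in Hh-CM and at 15.9 and 16.7 FPKM in Esrrb+Hh-CM. Of the adipogenic list, Fabp4, a fatty acid-binding protein, and Cd24a, a surface protein of progenitors, were called lower. Cd24a was at 32.3 and 32.6 against 11.2 and 10.5 FPKM (log2 fold change -1.57, adjusted p = 7.37e-05), while Fabp4, at 4.61 and 3.79 against 1.35 and 2.11 FPKM, had adjusted p = 0.0652 with only the 4 samples in the fit. Ribosomal protein genes, among the most abundant, were lower in 10 of 26 tested members by the adjusted p, against 6.69% of all tested genes. Their median was -0.18. That median was 0.01 after quantile normalization, and the number was 3 with only the 4 samples in the fit, 0 with no FPKM limit, 3 without Hh-CM replicate 1 and 4 without Esrrb+Hh-CM replicate 2.

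In all, 23 of the 42 lists with a tested member held at least 1 called gene and 19 held none. The 23 include the list of mRNAs chosen for qPCR, described below, and some called genes, such as Aldh1a7, are in more than 1 list. Besides those above, the lists without a call were those of collagen-processing enzymes, metalloproteinases and their inhibitors, glycolysis and hypoxia, primary cilium, glutathione and NRF2, the unfolded protein response, p53 targets and immediate early genes. Examples past the adjusted p were Plod3, a lysyl hydroxylase of collagen, at 55.9 and 60.9 against 94.8 and 91.5 FPKM, and Adamts1, a proteoglycan-cutting protease, at 140 and 145 against 96.4 and 99.6 FPKM. Vegfa, the vascular growth factor, was at 50.6 and 53.4 against 73.3 and 67.3 FPKM. No gene of the prolactin family was tested. Of 33 tested cilium genes, on which Hedgehog signalling depends, 1 was higher and 3 lower by the adjusted p. That share, 12.1%, was below the 19.5% of all tested genes, and 7 passed after quantile normalization.

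**Figure D4:**
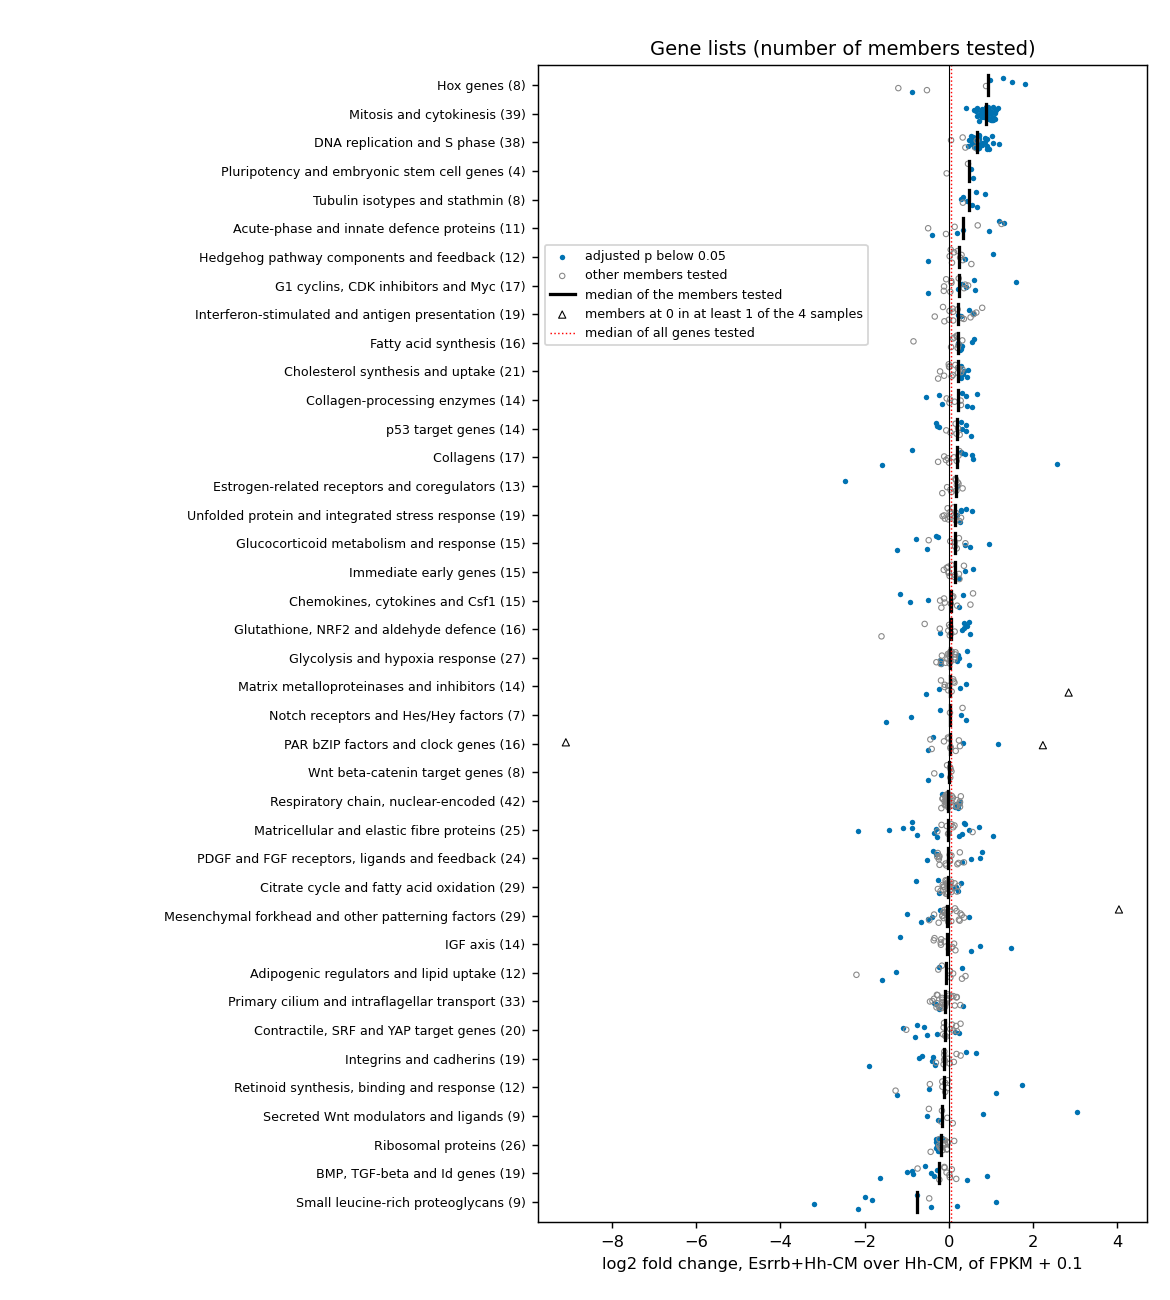
Log2 fold change of FPKM + 0.1, Esrrb+Hh-CM over Hh-CM (x axis), of each tested member of the gene lists with at least 4 tested members (y axis, ordered by median). The 39 mitosis genes form a narrow band around a median of 0.90, the small leucine-rich proteoglycans have the lowest median at -0.75, and triangles are members listed at 0 in at least 1 sample.

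A list of 15 mRNAs chosen for qPCR had 13 tested members. Of these, 4 were called higher and 2 lower, against 1.11% and 0.868% of all tested genes. The called genes were Saa3, Dpt, Sfrp2 and Top2a on one side and Smoc2 and Ogn on the other. By the adjusted p alone 9 of the 13 were higher and 2 lower, against 12.8% and 6.69% of all tested genes. The genes were picked on these same libraries, so they are no independent evidence of direction. Stmn1, Hp, Igfbp4, Hoxd8 and Hsd11b1 were higher by the adjusted p with log2 fold changes from 0.67 to 0.99. Hsd11b1, which regenerates active glucocorticoid, was at 78.9 and 76.8 FPKM in Hh-CM and at 167 and 137 FPKM in Esrrb+Hh-CM, but its locus also covers 1600010F14Rik. Igf1 was at 8.06 and 8.44 against 9.74 and 8.74 FPKM, and Pdcd4, an inhibitor of translation, at 147 and 144 against 135 and 126 FPKM, and neither passed the test (adjusted p = 0.203 and 0.0567).

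The vector effect under vehicle, Esrrb against Control, comes from other samples of the same 2 transfected lines and was set beside the effect under Hh-CM. In both media the vector and any other difference between the lines cannot be told apart. Agreement between the media is thus no independent evidence of an effect of Esrrb. Of the 188 called genes above 0, 170 had the same sign under vehicle, against 6942 of all 10139 tested genes (68.5%), and 85 were also called there in the same direction. The median log2 fold change of the 106 higher genes was 1.28 under Hh-CM and 0.93 under vehicle, and that of the 82 lower genes -1.48 and -1.03. Sfrp2 was at 8.13 and 7.75 FPKM in Control and at 85.5 and 87.2 FPKM in Esrrb, so all its levels were lower under Hh-CM while its log2 fold changes were 3.43 and 3.04. Igf2 changed by 1.60 and 1.47, and Ppargc1a by -3.02 and -2.47.

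The difference between the 2 vector effects was tested itself, and 136 of all tested genes (1.34%) and 19 of the 188 passed an adjusted p below 0.05. In the mitosis list, 11 of 39 members passed, all with the larger increase under Hh-CM. Top2a rose from 13.96 and 14.1 FPKM in Control to 20.8 and 20.7 FPKM in Esrrb, a log2 fold change of 0.56, against 1.17 under Hh-CM (difference 0.61, adjusted p = 0.0153). Of the proteoglycans, Aspn, Fmod and Ogn passed with the larger decrease under Hh-CM. Ogn was at 136 and 136 FPKM in Control and at 93.3 and 91.9 FPKM in Esrrb, a log2 fold change of -0.55 under vehicle and -1.83 under Hh-CM (difference -1.28, adjusted p = 0.00702). Il33 changed by -0.31 under vehicle and -1.17 under Hh-CM. The 19 of 188, the 11 of 39 and the genes named here come from the fit on all 8 samples. The number of genes past this test fell to 79 without the library Esrrb replicate 1 and to 59 without Esrrb replicate 2.

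**Figure D5:**
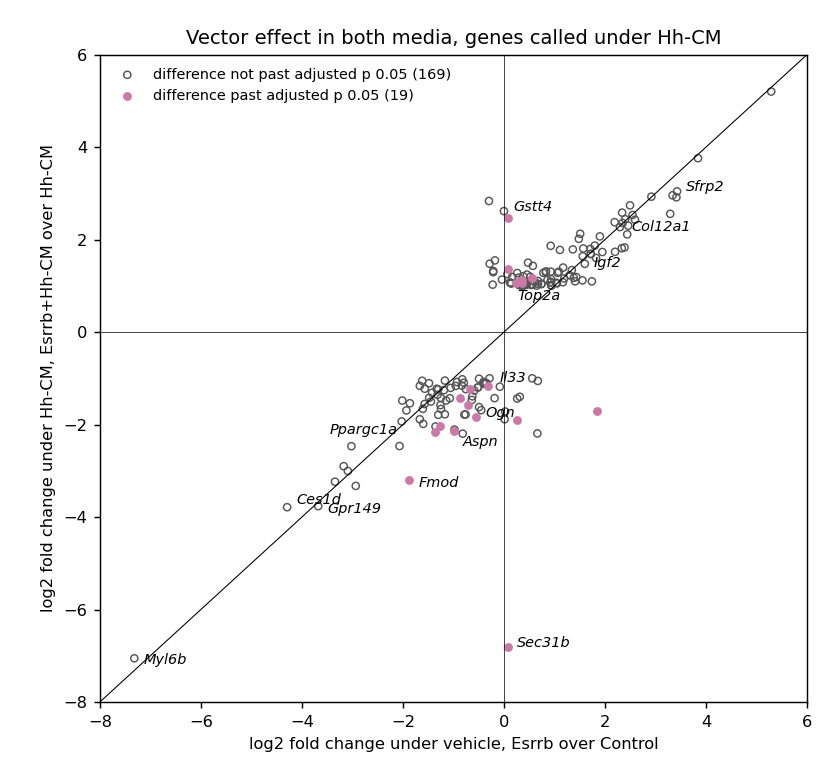
Log2 fold change of the 188 called genes above 0 in the 4 Hh-CM-treated samples, under vehicle (Esrrb over Control, x axis) and under Hh-CM (Esrrb+Hh-CM over Hh-CM, y axis), with the line of equality. Most points lie in the lower left and upper right quadrants, where 170 genes have the same sign, with Myl6b and Sec31b lowest on the y axis, and the 19 filled points passed the test of the difference.

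Genes at exactly 0 were kept apart, since in these files a 0 can mean that reads were given to another assembled locus. Of the tested genes, 12 were listed at 0 in both Hh-CM samples and above 0 in both Esrrb+Hh-CM samples, and 5 of them were called. The reverse held for 8 genes, of which 6 were called. Cuedc2 was listed at 0 in both Hh-CM samples and was at 34.5 and 35.4 FPKM in Esrrb+Hh-CM, and Tmem138 was listed at 0 and was at 14.2 and 14.2 FPKM. Both were above 10 FPKM in all 4 vehicle-treated samples. Over Tmem138, another locus had 274 and 289 FPKM in the Hh-CM samples, and the highest value of any locus over it in Esrrb+Hh-CM was 14.2 FPKM. The other 3 called genes at 0 in Hh-CM were Has2as, 4732471D19Rik and 2210417K05Rik, the last named after its values were seen.

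Znhit1, a subunit of a chromatin remodelling complex, was at 24.3 and 25.2 FPKM in Hh-CM and was listed at 0 in both Esrrb+Hh-CM samples. Over it, a second locus was at 55.9 and 60.9 FPKM in Hh-CM and at 94.8 and 91.5 FPKM in Esrrb+Hh-CM, values equal to those of Plod3 in each sample. Gps2, a subunit of the NCoR corepressor complex, was at 14.96 and 15.7 FPKM in Hh-CM, close to its 4 vehicle-treated values of 14.7 to 15.1, and was listed at 0 in Esrrb+Hh-CM. Rundc3a was at 5.60 and 5.49 FPKM against a listed 0, and for these 2 genes no other locus overlapped. Acmsd was at 14.1 and 8.31 FPKM in Hh-CM and listed at 0 in Esrrb+Hh-CM, Control and 1 Esrrb sample. No fold change is given for any of these genes, and the part of the assembly in them was not tested.

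A related limit touches genes whose locus also spans another gene, which held for 33 of the 188 called genes above 0. It held for 1325 of all 10139 tested genes. The steepest decreases among the 188, Myl6b and Sec31b, named after their values were seen, are of this kind. Myl6b was at 901 and 878 FPKM in Hh-CM and at 7.32 and 5.92 FPKM in Esrrb+Hh-CM, in a locus that also covers Myl6. Sec31b was at 141 and 145 against 0.998 and 1.38 FPKM, in a locus that also covers Ndufb8. Leaving such genes out, 155 called genes remained, 89 higher and 66 lower, and the 15 largest changes in each direction were taken from these.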

How the data were processed

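RNA-Seq libraries of 8 NIH3T3 samples were made with a stranded mRNA kit and sequenced in 1 lane. The authors trimmed and filtered reads, aligned them to the mm9 build (TopHat2 on Bowtie2) and ran Cufflinks on each sample, and the deposited values are FPKM per assembled locus, without read counts. Loci were given to the GENCODE vM1 gene of greatest overlap, at least 0.5 of the joint length, and summed per gene. Between 72.6% and 77.1% of loci at or above 1 FPKM were matched.

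All 8 samples entered one limma 3.58.1 fit (R 4.3.3) of 4 group means on log2(FPKM + 0.1), with a variance trend and Benjamini-Hochberg adjustment over all tested genes, checked on simulated data. Groups of 2 allow no exact permutation p below 0.33. The genes named are the 15 largest changes in each direction at loci of 1 gene with groups apart, up to 4 genes of each of 43 lists, called genes at 0, and the qPCR genes, and some genes that met this rule are not reported here. The members, lists and rules were chosen with earlier results of these data known. RefSeq promoter sequences (GRCm38.p6 table) were matched by symbol and located in the NCBIM37 (mm9) genome. The alternatives are given in the closing section. Prl2c3 and Tubb4b had no matched locus in every sample.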

Additional observations from a re-analysis of the deposited data

Results flagged for a closer look

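For 22 of the named genes the effect of the vector differed between vehicle and Hh-CM by the test of the difference itself (limma adjusted p below 0.05). These come from the fit on all 8 samples, which includes the vehicle-treated Esrrb replicate 1. The log2 difference, effect under Hh-CM minus effect under vehicle, was 0.61 for Top2a, 0.71 for Ube2c, 0.77 for Plk1, 0.82 for Kif2c and 0.83 for Ccnb1. These 5 mitosis genes had the larger increase under Hh-CM. It was -1.15 for Aspn, -1.28 for Ogn, -1.32 for Fmod and -0.79 for Mfap4 among matrix genes, -0.77 for Edil3, -0.85 for Cd24a and -0.86 for Il33. All 7 were lower in both media, and lower by more under Hh-CM.

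Of genes that were not called, Igfbp4, Pdcd4, Dhrs9 and Dkk3 had effects of opposite sign in the 2 media. Igfbp4 (1.06) and Hp (0.93) had the higher value of the 2 effects under Hh-CM. Igfbp4 was at 25.9 and 22.1 FPKM in Control and at 18.3 and 19.99 FPKM in Esrrb. Igf1 (-0.84) and Pdcd4 (-0.73) were higher in Esrrb than in Control, at 6.604 and 6.62 against 3.36 and 3.15 FPKM for Igf1. The other differences were -0.57 for Sfrp1, -0.44 for Kitl, -0.62 for Pdk4, -0.56 for Dhrs9, -0.48 for Gas1 and -0.33 for Dkk3.

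Loci that were given to no gene were not part of the comparison, and 13 of those with the same position in the 4 samples had groups apart and means at least 2-fold apart. On chromosome X, the loci from 52683412 to 52700069 and from 52804773 to 52821634 were 5.996 and 4.94 times as high in Esrrb+Hh-CM as in Hh-CM, and overlap Gm14625 and Gm16404. The locus on chromosome 2 from 11393058 to 11475556, over Pfkfb3, which encodes a regulator of glycolysis, was at 6.44 and 7.45 FPKM in Hh-CM and at 19.9 and 18.9 FPKM in Esrrb+Hh-CM, a ratio of 2.79. It was at 1.37 and 1.35 FPKM in Control and at 4.90 and 4.92 FPKM in Esrrb. The ratio was 2.37 for 3 loci with near-equal values in every sample, 2 of them on chromosome 4 from 41902019 to 41925853 and from 42452733 to 42476567 and 1 on unplaced sequence. It was 2.49 and 2.09 for 2 loci on chromosome 1, over Acmsd and Ptprv, 2.80 on chromosome 14, 2.40 on chromosome 18 and 2.67 on chromosome 6. The locus on chromosome 5 from 26326712 to 26447965, over 8 genes, had a ratio of 0.456 with replicates far apart, at 43.4 and 11.9 FPKM in Esrrb+Hh-CM, and that on chromosome Y, over Gm3376, a ratio of 0.458.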

How the results depend on the processing

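Main values were 113 genes higher, 88 lower, 188 called above 0 and 136 with a different vector effect in the 2 media. A pseudocount of 1 gave 70, 56 and 111, and an FPKM of at least 1 in all 4 samples 75, 45 and 120. Only genes at identical loci gave 74 higher genes and 206 with a different vector effect. The adjusted p alone gave 1299, 678 and 1964. The number with a different vector effect was 51 with the replicate block, 212 after quantile normalization and 78 with no variance trend. Leaving out single samples gave ranges of 108 to 140, 78 to 89, 148 to 210 and 59 to 159, and the last number was lowest without Esrrb replicate 2. Replicate numbers did not pair the samples (correlations of deviations from -0.082 to 0.063), and the block gave 107 higher and 82 lower genes. The other alternatives moved these counts by less than 1.5 times, and no effect of a named gene reversed. Settings other than leaving out a sample ended a call in 56 of 2142 cases, and calls also ended with a sample left out. These cases include named genes that had no call to lose, so the share of calls that ended was larger. The cause of these shifts was not tested. The stricter limit left 9695 genes to test and identical loci 6390. The difference of effects could not be fitted with only the 4 samples. Depth, not given per sample in the files and by low values lowest in Esrrb+Hh-CM replicate 2, limits values under 1 FPKM.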
